A study of Bos taurus with 21 samples.

Results

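Complement genes were followed in RNA from the somatic cells of milk of 21 Holstein cows. The 9 genes C1QA, C1QB, C1QC, C2, C3, CFB, CFD, C3AR1 and C5AR1 were taken by their symbols. Each of them had a single row among the 13570 gene rows of the count tables, and all 9 were among the 12333 genes that were counted in 1 or more cows. The members were described across cows, and were compared with marker genes of macrophages, neutrophils and epithelial cells, with the lactation period and with the milk traits.

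The cows belonged to a high yielding group (HY, 9 cows) and a low yielding group (LY, 12 cows), as given in the labels. The study coded these groups by the Korea Type-Production Index. The breeding value of milk yield has no stated unit, and it lay between 181.118 and 468.053 in HY and between -404.27 and 86.92 in LY. The shared background of both groups was the Holstein breed, a parity of 2 to 4 and milk as the source, and the labels name no treatment and give no age. HY cows were sampled at 41 to 268 days of lactation and LY cows at 52 to 270 days, so each library is a single cow at a single time.

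Complement is a cascade of proteins that marks microbes and dying cells for uptake and draws in phagocytes. The classical pathway starts with C1q, which is assembled from A, B and C chains and binds antibody complexes, and then uses C2 as the protease part of the enzyme that cuts C3. The alternative pathway builds such an enzyme from factor B (CFB) after factor D (CFD) has cut it, and fragments of C3 and C5 signal to phagocytes through the receptors encoded by C3AR1 and C5AR1. Tissue macrophages are a known source of C1q, C3 is also made by epithelial cells, and complement is part of the defence of the udder.

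The library of a cow held between 7878557 and 28541904 counts. The values are CPM, the counts of a gene scaled to a common library total, with TMM factors that correct for a few genes taking much of a library. The factors ranged from 0.46011 to 1.4811, and the lowest were those of HY cow 8 (0.46011) and HY cow 9 (0.49827). These cows had the highest scores over the milk protein genes, such as the caseins. For each cell type a score was computed as the mean log2(CPM + 0.25) over its counted markers, with no complement gene among them. The macrophage score used 7 of 13 listed markers, all counted in every cow, with summed levels of 1501 to 8299 CPM. The neutrophil score used 7 of 12, of which PGLYRP1 was at 0 in some cows and CXCR1 had no count at all, with summed levels of 1641 to 11100 CPM. The epithelial score used 12 of 13, all counted in every cow, with summed levels of 36.7 to 4441 CPM. The milk somatic cells were therefore a mixture in every library. In such bulk samples fewer cells of a type and less RNA per cell cannot be told apart. By the mapping rates in the study's methods, 16 cows formed a set of lower rates and 5 cows (1 HY and 4 LY) a set of higher rates, and results were recomputed within the 16 cows.

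C1QA, which encodes the A chain of C1q, ranged from 6.66 CPM in HY cow 3 to 102 CPM in LY cow 5, with a median of 23.6 CPM over the 21 cows. C1QB, the B chain, ranged from 5.18 CPM in HY cow 3 to 82.5 CPM in HY cow 1, with a median of 24.7 CPM. C1QC, the C chain, ranged from 2.54 CPM in HY cow 3 to 60.9 CPM in LY cow 5, with a median of 13.7 CPM. With TMM factors the same cow, HY cow 3, was lowest for all 3 chains. Without them HY cow 9 was slightly below HY cow 3 for C1QA (5.58 against 5.71 CPM) and C1QC (2.15 against 2.17 CPM). LY cow 5, LY cow 12, HY cow 1 and HY cow 5 were high for each of the chains. C2 ranged from 40.1 CPM in HY cow 9 to 466 CPM in HY cow 1, with a median of 123 CPM.

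C3, the central protein on which the pathways converge, ranged from 80.8 CPM in LY cow 1 to 534 CPM in HY cow 9, with a median of 147 CPM. HY cow 8 followed with 400 CPM and LY cow 10 with 299 CPM. These 3 cows also had the highest epithelial scores. The place of HY cow 8 rested on its low TMM factor. Without TMM factors C3 was at 266 CPM in HY cow 9, 240 CPM in LY cow 10 and 184 CPM in HY cow 8. HY cow 5, with an epithelial score of only 2.53, then had 238 CPM. CFB ranged from 7.97 CPM in HY cow 5 to 179 CPM in LY cow 2, with a median of 39.4 CPM. CFD ranged from 6.53 CPM in LY cow 2 to 181 CPM in LY cow 12, with a median of 22.5 CPM. LY cow 2 was thus the highest cow for CFB and the lowest for CFD.

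C3AR1, the receptor of the C3a fragment, ranged from 5.88 CPM in LY cow 12 to 93.9 CPM in LY cow 5, with a median of 20.2 CPM. C5AR1, the receptor of the C5a fragment, had only 0 to 172 counts per cow, and the count was 0 in 7 cows, 5 of them HY and 2 LY. A count of 0 allows a level of up to 0.117 to 0.328 CPM before TMM scaling in those libraries (3 counts of the total, counting error only). LY cow 12 held 172 of its 22542235 counts on C5AR1, or 7.63 CPM without TMM factors (95% exact binomial interval 6.53 to 8.86, counting error only), and the next cow, LY cow 10, held 17 counts. Values of C5AR1 therefore rest largely on a single cow. No transcript lengths were used, so levels are compared between cows and not between genes.

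**Figure D1:**
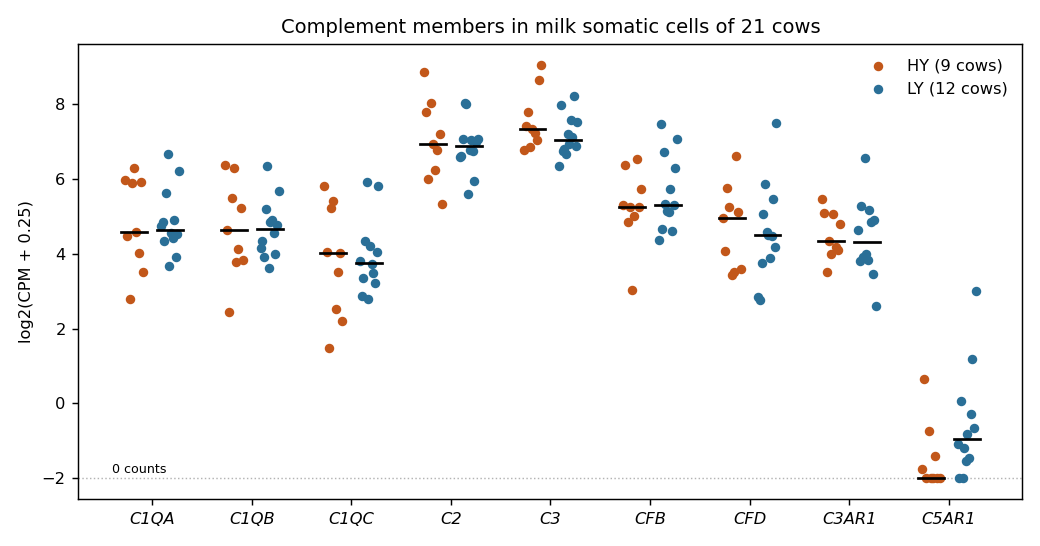
Level of each complement gene on the log2(CPM + 0.25) axis in the 9 HY and 12 LY cows, with points for cows and black bars for group medians. The groups overlapped for every member, and the dotted line marks a count of 0, found only for C5AR1 (7 cows).

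The spread between cows differed among the members. The SD of log2(CPM + 0.25) was 0.68 for C3, 0.86 for C3AR1, 0.87 for C2, 0.999 for C1QB, 1.01 for CFB, 1.03 for C1QA, 1.20 for CFD, 1.22 for C1QC and 1.30 for C5AR1. The median SD of the 9628 genes with a mean of at least 10 counts was 0.71. C3 was thus the only member below the median of these genes.

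The 3 chains of C1q varied together across the 21 cows. Spearman rho was 0.94 (r = 0.95) between C1QB and C1QC, 0.86 (r = 0.93) between C1QA and C1QB, and 0.80 (r = 0.90) between C1QA and C1QC. These are descriptions with no test, over cows whose libraries the genes share. Within the 16 cows of lower mapping rates, rho was 0.94, 0.91 and 0.89. The count ratio of C1QA to C1QB stayed between 0.707 in LY cow 8 and 1.76 in HY cow 6, whereas each of the chains varied at least 15.4 times between cows. The ratio of C1QA to C1QC went from 1.12 to 4.26 and that of C1QB to C1QC from 0.919 to 3.23.

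C2 varied with the C1q chains, with rho of 0.81 to C1QB, 0.81 to C1QC and 0.66 to C1QA. C3 had negative rho with these 4 genes, from -0.28 with C1QB to -0.48 with C1QC. CFB and C2 are neighbours in the genome (RefSeq table), and rho between them was 0.31. CFB and CFD, the protease and its activator in the alternative pathway, had a rho of 0.28. The receptors C3AR1 and C5AR1 had a rho of 0.08.

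**Figure D2:**
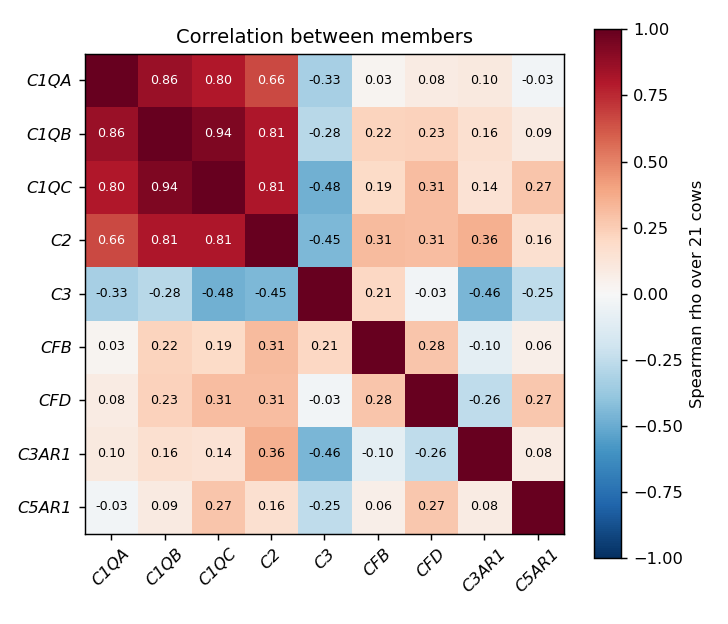
Spearman rho of log2(CPM + 0.25) between each pair of the 9 complement genes over 21 cows, from blue (-1) to red (1). C1QA, C1QB, C1QC and C2 form a block with rho from 0.66 to 0.94, and C3 is negative with all 4 of them.

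The first comparison asked which members followed the macrophage markers. The 3 C1q chains and C2 rose with the macrophage score, and C3 fell with it. The slope is the log2 change of a gene per unit of the score, so that a slope of 1 means a change in proportion to the average marker. It was 1.79 (SE 0.23) for C1QC, 1.31 (SE 0.22) for C1QA, 1.28 (SE 0.20) for C1QB and 1.23 (SE 0.17) for C2. In the edgeR quasi-likelihood test over all 12333 genes, the Benjamini-Hochberg adjusted p was 2.44e-05 for C1QC, 6.87e-05 for C2, 0.000200 for C1QB and 0.000311 for C1QA. C3 had a slope of -0.67 (SE 0.20, adjusted p = 0.0235, edgeR). Of the 9 members 5 were called, 4 higher and 1 lower, against 17% of all genes called in either direction, 8.57% higher and 8.42% lower. The median slope was 1.23 over the members and 0.03 over all genes, and it was 1.05 over the 7 macrophage markers, which the score itself contains.

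The calls of C1QA, C1QB, C1QC and C2 were held in all of 8 other settings and in each of the 21 fits without 1 cow. Their slopes over those settings lay between 1.10 and 1.57 for C1QA, 1.14 and 1.42 for C1QB, 1.49 and 1.89 for C1QC, and 1.10 and 1.24 for C2. One of those settings used no TMM factors, and all genes then had a median slope of 0.42. Relative to that median the slopes were 0.68 for C1QA, 0.71 for C1QB, 1.07 for C1QC and 0.72 for C2. With TMM factors they were 1.28, 1.25, 1.76 and 1.20 relative to the median of all genes. With the epithelial score in the same fit, a setting chosen after seeing the data, the slopes were 1.69 for C1QC, 1.57 for C1QA, 1.31 for C1QB and 1.10 for C2, and all 4 were called. The C3 slope was -0.26 (adjusted p = 0.545) in that fit and -0.17 (adjusted p = 0.131) without TMM factors. Without HY cow 9 it was -0.49 (adjusted p = 0.181, edgeR), and without HY cow 1 it was -0.67 (adjusted p = 0.0506), so that C3 was called in 19 of the 21 fits without 1 cow.

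The remaining members were not called with the macrophage score. Slopes were 0.58 (SE 0.27, adjusted p = 0.145) for C3AR1, 0.78 (SE 0.47, adjusted p = 0.276) for CFD and -0.40 (SE 0.34, adjusted p = 0.468) for CFB in edgeR. The adjusted p of C5AR1 was 0.527. The slope of CFD was 0.42 without LY cow 12, that of CFB was 0.04 without LY cow 2, and that of C3AR1 was 0.23 without LY cow 5, the cow with the highest level of this receptor. Without TMM factors it was 0.74 (adjusted p = 0.00235), and all genes then had a median slope of 0.42.

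Correlations with the macrophage score were computed on the log2 levels. For C1QC, r was 0.873 (permutation p = 1e-05, the smallest that 100000 permutations can give, adjusted p = 0.000656) and rho was 0.840 (permutation p = 3e-05, adjusted p = 0.00162). Without HY cow 1 and HY cow 9, the cows farthest from the median score, r was 0.841, and within the 16 cows it was 0.913. For C2, r was 0.859 (permutation p = 1e-05, adjusted p = 0.000656) and rho was 0.823 (permutation p = 2e-05, adjusted p = 0.00135), with r = 0.784 without those cows and 0.890 within the 16 cows. For C1QA, r was 0.805 (permutation p = 3e-05, adjusted p = 0.00123) and rho was 0.804 (permutation p = 2e-05, adjusted p = 0.00135), with r = 0.780 and 0.815 in those subsets. For C1QB, r was 0.799 (permutation p = 2e-05, adjusted p = 0.000960) and rho was 0.813 (permutation p = 3e-05, adjusted p = 0.00162), with r = 0.780 and 0.806. For C3, r was -0.575 (permutation p = 0.00619, adjusted p = 0.0376) and rho was -0.536 (permutation p = 0.0134, adjusted p = 0.0735), and r was -0.382 without the 2 cows, so that the relation of C3 rests in part on them. Adjustment was over 12333 genes, 18.6% of which passed for r.

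**Figure D3:**
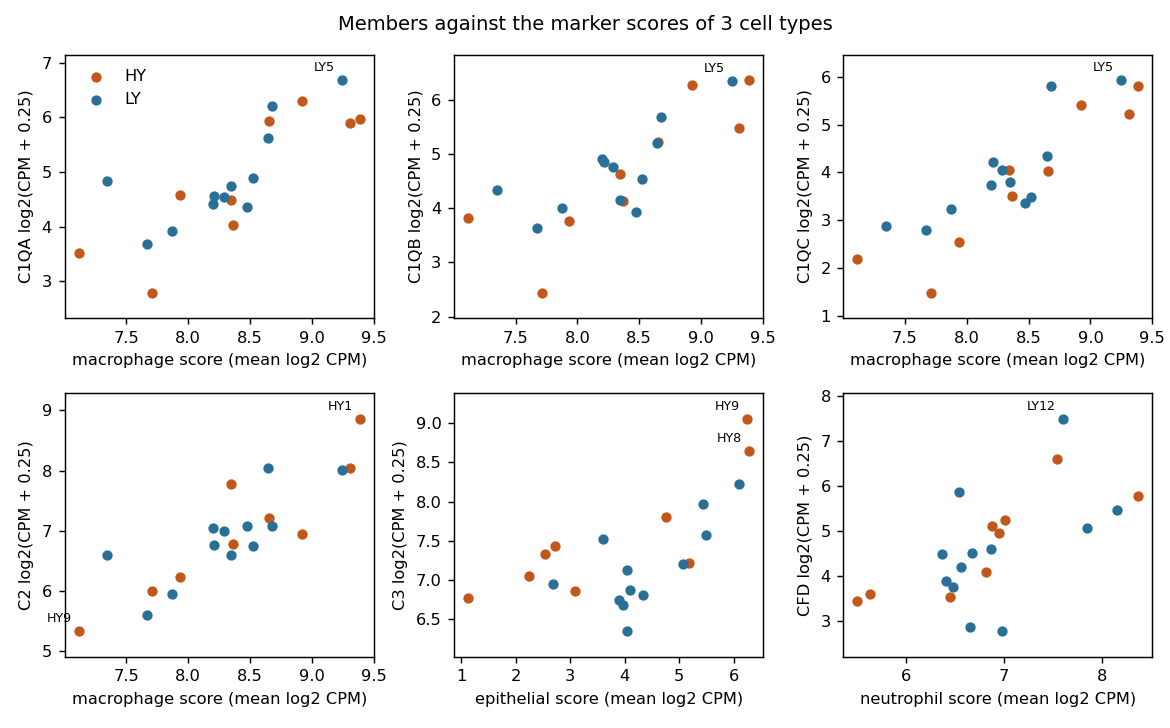
Log2(CPM + 0.25) of a complement gene (y axis) against a marker score in mean log2 CPM (x axis) in 21 cows, with HY in orange and LY in blue. C1QA, C1QB, C1QC and C2 rise with the macrophage score, and CFD is highest in LY cow 12. With the TMM factors used here, C3 is highest in HY cows 8 and 9 at the high end of the epithelial score.

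Against the epithelial score, the called members moved opposite to their direction with the macrophage score. Markers of each cell type fell with the score of the other, so these slopes are not independent of those on the macrophage score. All 12 epithelial markers had slopes below 0 on the macrophage score (median -1.03, 4 called lower in edgeR). All 7 macrophage markers had slopes below 0 on the epithelial score (median -0.34, 3 called lower in edgeR). The correlation between the scores was not tested. C3 rose with a slope of 0.34 (SE 0.075, adjusted p = 0.00186), whereas C2 (-0.38, SE 0.10, adjusted p = 0.00896), C1QC (-0.53, SE 0.15, adjusted p = 0.0136) and C1QB (-0.34, SE 0.12, adjusted p = 0.0455) fell in edgeR. The slope of C1QA was -0.24 (SE 0.14, adjusted p = 0.244). Of the 9 members 1 was called higher and 3 lower, against 20.5% of all genes called in either direction, 12.2% higher and 8.37% lower. The median slope was -0.25 over the members and -0.03 over all genes. The epithelial score had a much wider range (1.13 to 6.28) than the macrophage score (7.12 to 9.39), so slopes on the scores are not on a common scale.

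None of the 4 epithelial calls was held with the macrophage score in the same fit, a setting chosen after seeing the data. C3 had a slope of 0.27 (adjusted p = 0.0624) there, C2 -0.09 (adjusted p = 0.590), C1QC -0.07 (adjusted p = 0.768) and C1QB 0.02 (adjusted p = 0.941) in edgeR. Without TMM factors, which moved the median slope of all genes to -0.23, the slope of C3 was 0.09 (adjusted p = 0.474), or 0.32 above that median. Without HY cows 8 and 9, the cows with the lowest TMM factors, it was 0.20 (adjusted p = 0.0928). C2 was not called without HY cow 1 (-0.28, adjusted p = 0.108), and C1QB was called in 11 of the 21 fits without 1 cow, with the highest adjusted p (0.158) without HY cow 1. The call of C1QB was lost without HY cow 1, 4, 5, 6 or 9 or without LY cow 2, 6, 9, 10 or 11. For C3 and the epithelial score, r was 0.665 (permutation p = 0.00096, adjusted p = 0.00960) and rho was 0.603 (permutation p = 0.00504, adjusted p = 0.0311) over 21 cows, with r = 0.604 without HY cows 1 and 8 and 0.701 within the 16 cows.

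CFD was the only member called with the neutrophil score. CFD, the serine protease also known as adipsin, rose by 1.23 on the log2 scale per unit of score (SE 0.29, adjusted p = 0.00947, edgeR). This is 1 of 9 members, against 8.47% of all genes called in either direction, 5.77% higher and 2.7% lower. The median slope was -0.09 over the members and -0.01 over all genes. It was 1.18 over the 7 neutrophil markers, which the score itself contains, and 5 of these were called higher. S100A12 (0.57, adjusted p = 0.0580) and PGLYRP1 (0.36, adjusted p = 0.745) were not called in edgeR. CFD was called in all 21 fits without 1 cow, with a slope of 0.93 without LY cow 12. Within the 16 cows, which exclude LY cow 12, the slope was 0.93 (adjusted p = 0.0635). The correlation was r = 0.628 (permutation p = 0.00232, adjusted p = 0.0371) and rho = 0.651 (permutation p = 0.00198, adjusted p = 0.0297), with r = 0.613 without HY cow 3 and LY cow 10 and 0.623 within the 16 cows.

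The receptors were not called with the neutrophil score in edgeR with TMM factors over the 21 cows. C3AR1 had a slope of -0.75 (SE 0.27, adjusted p = 0.0908), and C5AR1 had 2.04 (SE 0.76, adjusted p = 0.0981), which was 0.81 without LY cow 12. The calls depended on the setting. Without TMM factors C5AR1 was called (2.78, adjusted p = 0.0329, edgeR), and the slope of C3AR1 was -0.15 (adjusted p = 0.894). C3AR1 was called in 1 of the 21 fits without 1 cow, that without HY cow 5 (-0.93, adjusted p = 0.0338). The DESeq2 Wald test, which called 1563 of the 12333 genes, gave an adjusted p of 0.0154 for C3AR1 and 0.0269 for C5AR1. CFB had a slope of 0.62 (SE 0.31, adjusted p = 0.219, edgeR). The C1q chains, C2 and C3 had adjusted p from 0.473 to 0.860.

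**Figure D4:**
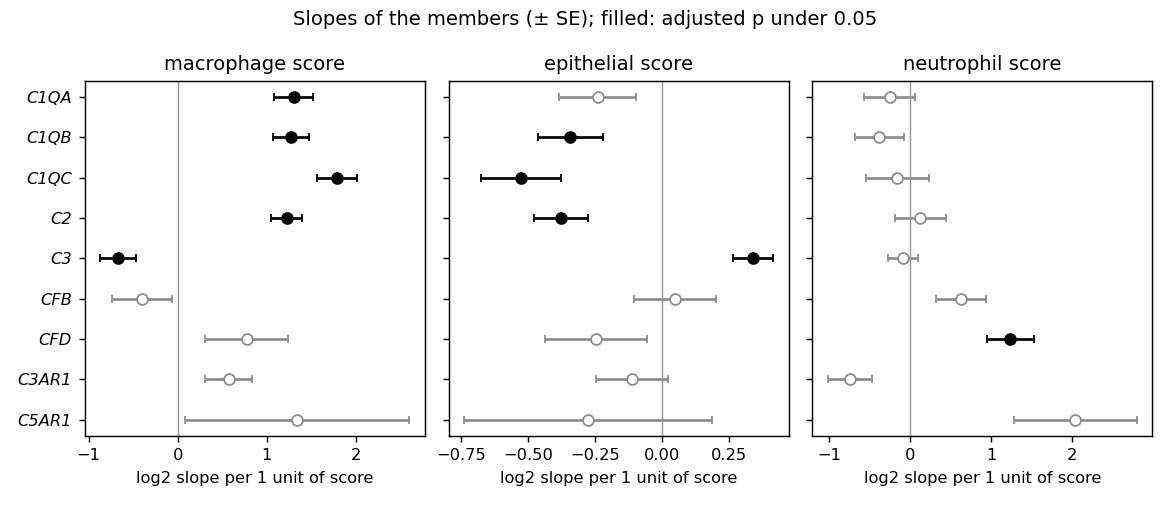
Slopes of the 9 complement genes (log2 per unit of score, points, with SE as bars) on the macrophage, epithelial and neutrophil scores, with filled points for an adjusted p under 0.05 and a separate x axis in each panel. The C1q chains and C2 are right of 0 for macrophages, C3 is right of 0 for epithelial cells, and CFD is the filled point for neutrophils.

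The next comparison asked whether the members differed between HY and LY. No member did so in edgeR, with 0 of 9 called and 0% of all genes called, and 0 of 9 with an unadjusted p under 0.05, against 4.7% of all genes. DESeq2 called 0 members and 1 gene of the whole table. The C3 level had a median of 160 CPM in HY (109 to 534) and 131 CPM in LY (80.8 to 299), with a log2 difference of 0.52 for HY minus LY (SE 0.29, p = 0.0891, adjusted p = 0.999, edgeR). Without HY cow 9 it was 0.23. With the epithelial score as a further term it was 0.63 (p = 0.00408, adjusted p = 0.525, edgeR). With the macrophage score as a further term it was 0.55 (p = 0.0286, adjusted p = 0.917, edgeR). CFB had a median of 38.2 CPM in HY (7.97 to 93.1) and 39.6 CPM in LY (20.3 to 179), with a log2 difference of -0.48 (SE 0.41, p = 0.252), which was -0.23 without LY cow 2. C5AR1 had a fitted difference of -2.14 (SE 1.04, p = 0.0511), which was -0.82 without LY cow 12 and -3.75 without HY cow 2. Its edgeR p was 0.0348 within the 16 cows and 0.0176 with the epithelial score as a further term. The DESeq2 Wald p of C5AR1 was 0.0136, and it was called in none of these settings. The groups overlapped for every member.

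For the other members unadjusted p ranged from 0.335 to 0.876. C1QA had medians of 23.6 CPM in HY and 24.8 CPM in LY, C1QB 24.7 and 25.0 CPM, C1QC 16.2 and 13.3 CPM, C2 123 and 118 CPM, and C3AR1 20.2 and 20.2 CPM. CFD had a median of 30.6 CPM in HY (10.6 to 97.1) and 22.3 CPM in LY (6.53 to 181). The macrophage, neutrophil and epithelial scores were not detectably different between the groups either, with exact permutation p of 0.651, 0.682 and 0.347 over 293930 splits (adjusted p = 0.682 for each over 5 scores).

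The other milk traits were also breeding values with no stated unit, not measured milk composition. Over the 21 cows they ranged from -14.377 to 10.928 for fat, -13.24 to 14.589 for protein and -29.9 to 41.4 for solid. Across the milk traits no member was called in edgeR, and over the 21 cows none had an unadjusted p under 0.05. Of all genes, 0.105% were called for milk yield, 0% for milk fat, 0% for milk protein and 0.0324% for milk solid, and 3.7%, 2.87%, 2.77% and 3.13% had an unadjusted p under 0.05. DESeq2 called 0 members for each trait. The member with the lowest p was CFB for milk yield, with a slope of -0.11 per 100 units (SE 0.080, p = 0.168), and again CFB for milk solid (-0.15 per 10 units, SE 0.10, p = 0.139). Within the 16 cows these slopes of CFB were -0.17 (p = 0.0371) and -0.23 (p = 0.0268), neither of them called by edgeR. For milk fat and milk protein it was C3, with slopes of 0.32 (SE 0.24, p = 0.202) and 0.31 per 10 units (SE 0.22, p = 0.166).

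Lactation period was examined in the same way, as a log2 slope per 100 days. No member was called in edgeR, against 0.0243% of all genes, whereas 2 of 9 had an unadjusted p under 0.05, against 22.3% of all genes. DESeq2 called 0 members. C3AR1 had a slope of -0.55 (SE 0.21, p = 0.0161, adjusted p = 0.139), with its highest level at 102 days in LY cow 5 and its lowest at 224 days in LY cow 12. It was -0.38 without LY cow 5 and -0.54 within the 16 cows. C5AR1 had a slope of 1.49 (SE 0.70, p = 0.0443, adjusted p = 0.211), and 0.76 without LY cow 12. Slopes of the others that were examined in detail were 0.45 (SE 0.34) for CFD, -0.33 (SE 0.21) for C2 and -0.30 (SE 0.19) for C3, with adjusted p from 0.339 to 0.441, and they were 0.19 for CFD without LY cow 12, -0.05 for C2 without HY cow 1 and -0.18 for C3 without HY cow 9. The median slope was -0.27 over the members and 0.02 over all genes.

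The test of whether lactation slopes differed between HY and LY called 0 members and 0% of all genes in edgeR, with 0 of 9 members and 2.61% of all genes at an unadjusted p under 0.05. The lowest p among the members was that of C3 (difference of slopes -0.27, SE 0.38, p = 0.481).

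**Figure D5:**
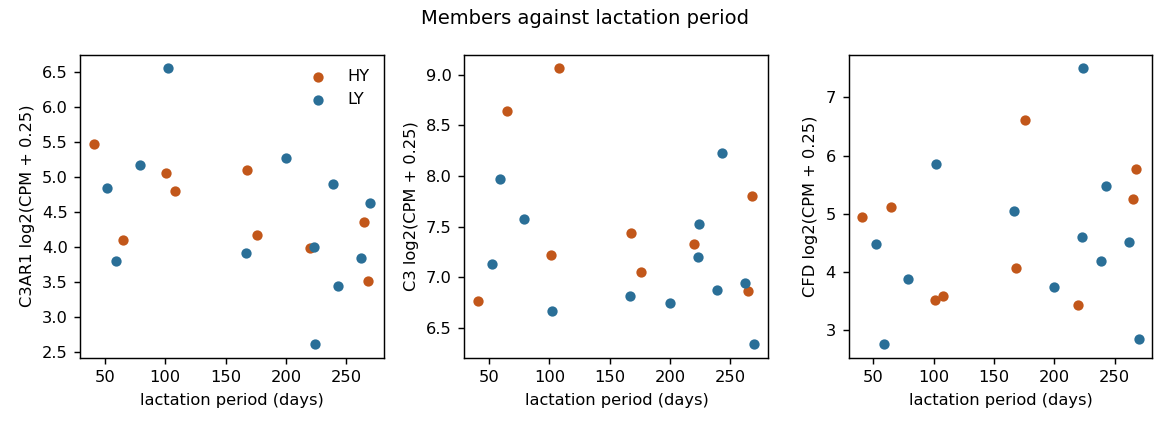
Log2(CPM + 0.25) of C3AR1, C3 and CFD (y axes) against lactation period in days (x axis) in the 9 HY cows (orange) and 12 LY cows (blue). C3AR1 is highest in LY cow 5 and lowest in LY cow 12, and cows of both groups are spread over the whole period.

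The other genes of the pathway were read from a list of 39 symbols, of which 30 had counts. With the macrophage score, 4 of the 30 were called higher and 1 lower, a share near that of all genes (17% called, 8.57% higher and 8.42% lower), so the count is no result about the list. These were VSIG4 (slope 1.21, SE 0.16), the complement receptor of tissue macrophages, ITGAM (1.39, SE 0.24) and ITGB2 (1.20, SE 0.19), the chains of complement receptor 3, and CFP (0.94, SE 0.20), which encodes properdin, the stabiliser of the alternative pathway enzyme. Adjusted p ranged from 4.03e-05 to 0.00278 for these 4 in edgeR. C6, a component of the membrane attack complex with 0 to 37 counts per cow, had a slope of -2.36 (adjusted p = 0.0323), and was not called without HY cow 1, 4 or 9 or without LY cow 2. By permutation of rho, C6 did not pass (-0.55, adjusted p = 0.0626). MASP1 (-0.73, adjusted p = 0.00668) and COLEC12 (-0.66, adjusted p = 0.0173) passed that test, though edgeR did not call them with the macrophage score (adjusted p = 0.0766 and 0.131). The median slope over the 30 genes was -0.28, against 1.23 over the 9 members.

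With the epithelial score, 6 of the 30 were called higher and 3 lower, against 12.2% and 8.37% of all genes. MASP1 (1.67, SE 0.22), a protease of the lectin pathway, COLEC12 (1.12, SE 0.13), a collectin, SERPING1 (0.77, SE 0.13), the inhibitor of C1, and CD59 (0.44, SE 0.073), which blocks the membrane attack complex, rose together with C6 (1.72, SE 0.30) and C4BPA (1.08, SE 0.38). ITGAM (-0.62, SE 0.095), ITGB2 (-0.34, SE 0.10) and VSIG4 (-0.33, SE 0.11) fell. The latter pair was not called without HY cow 1 or HY cow 9, nor VSIG4 without HY cow 5. C4BPA, a chain of the C4b-binding protein, was called in 8 of the 21 fits without 1 cow. With the macrophage score in the same fit, 7 of the 30 were called, where 1434 of the 12333 genes were called in all.

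With the neutrophil score, GPR77 (1.14, SE 0.22), an older symbol of the C5a receptor C5AR2, C8G (1.51, SE 0.43), FCN1 (0.80, SE 0.23), a ficolin of the lectin pathway, and CD55 (0.79, SE 0.25), a membrane inhibitor of the C3-cutting enzymes, were called higher, with adjusted p from 0.00138 to 0.0495 in edgeR. These are 4 of the 30, against 5.77% of all genes called higher. CD55 was called in 6 of the 21 fits without 1 cow, C8G was not called without HY cow 7 or LY cow 12, and FCN1 was not called without HY cow 7, HY cow 9 or LY cow 12. By permutation of rho, FCN1 passed (0.70, adjusted p = 0.0181), but GPR77 (0.49, adjusted p = 0.139), C8G (0.54, adjusted p = 0.0917) and CD55 (0.41, adjusted p = 0.246) did not. By permutation of r, of these genes only GPR77 passed (0.725, adjusted p = 0.00731), and its r was 0.542 without HY cow 3 and LY cow 10. For lactation period 0 of the 30 were called in edgeR, against 0.0243% of all genes, and DESeq2 called 4 of the 30 and 865 of the 12333 genes. The 3 with the lowest p were CD55 (0.86 per 100 days, SE 0.22, adjusted p = 0.0639), C1R (-0.57, SE 0.16, adjusted p = 0.0724) and C6 (-2.24, SE 0.72, adjusted p = 0.0909).

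Between HY and LY 0 of the 30 were called, and the 3 of lowest p were C4BPB (-2.39, p = 0.00926), C4BPA (-2.31, p = 0.0199) and C9 (-2.44, p = 0.0340) on the log2 scale, each with an adjusted p of 0.999 in edgeR. C4BPB had at most 2 counts and C9 at most 5 counts in any cow.

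Among 9628 genes with a mean of at least 10 counts, the genes whose pattern over the 21 cows was most like each member were listed by Spearman rho, as a description. The mean of the C1q chains was followed most closely by PLD3 (rho 0.89), TMEM189 (0.89), PLTP (0.88), CRAT (0.87) and EFTUD2 (0.87). For C2 they were GLB1 (0.92), SLC43A2 (0.91), CTSA (0.91), LPCAT3 (0.91) and SDC3 (0.89). GLB1 and CTSA encode the lysosomal enzymes beta-galactosidase and cathepsin A. For C3 they were TRAF3IP3 (0.86), MTA3 (0.78), FAM32A (0.77), C5H12orf68 (0.77) and SELENBP1 (0.77).

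CFB was most like HYAL1 (0.80), SAA3 (0.78), PDXK (0.78), RETN (0.77) and FAM50A (0.76), and SAA3 encodes an acute phase serum amyloid A that is also made in the udder. CFD was most like MAP3K11 (0.93), AKT1 (0.92), NR1H2 (0.91), ZYX (0.90) and MED15 (0.90). Genes like C3AR1 included STX12 (0.83), ANKRD29 (0.77), SNX5 (0.76) and OCIAD2 (0.76). C5AR1 was most like CELSR2 (0.82), SMPDL3B (0.81), MED12L (0.79), TNFSF13B (0.78) and IL6 (0.77), with the low counts given above.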

How the data were processed

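The authors trimmed paired reads with Trimmomatic, aligned them to BosTau7 with TopHat2 and Bowtie2, and counted them on genes with HTSeq. The deposited values are raw counts per gene. Versions and use of strand are not given in the sources used here, so reads shared by overlapping genes (MED16 neighbours CFD) cannot be told apart. A row named null and the HTSeq summary rows were left out. The null row held 0.036% to 0.151% of counts. The 12333 genes counted in 1 or more cows were tested with edgeR 4.0.16 (quasi-likelihood test, TMM, Benjamini-Hochberg, adjusted p under 0.05), in R 4.3.3. DESeq2 1.42.0 was an alternative. Levels are log2(CPM + 0.25), and the SE is that implied by the F statistic. Correlations used 100000 two-sided permutations. The code was tested on simulated data. Cows are named by group and order in the series. Nothing says that they were resampled, and every pair differed beyond sampling noise. The members and lists were chosen with earlier results of these data known. Named genes are the members, wider complement genes called (or the 3 of lowest p where none was), and the 5 genes most like each member, of which 1 is not reported here. Symbols were matched to a RefSeq table of another build, so no coordinates are given.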

Additional observations from a re-analysis of the deposited data

Results flagged for a closer look

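In the HY group of 9 cows, the highest and lowest cow were examined for each of the 9 members (18 tests, of which chance is expected to flag about 1 in 20 groups). The LY group of 12 cows was not tested in this way. For CFB, HY cow 5 was far below the others, with 7.97 CPM against 28.5 CPM in the next cow, and the gap was 0.516 of the log2 range, above the 95% limit for a group of this size. The same cow had one of the high C1QA levels (78.6 CPM) and the lowest neutrophil score (5.50). For C5AR1, HY cow 2 was far above the others, with 1.33 CPM against 0.352 CPM in the next cow, and the gap was 0.523 of the range. This cow held 31 counts on C5AR1, and 5 HY cows held 0.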

How the results depend on the processing

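The C1q chains and C2 kept their direction and their calls with the macrophage score in all alternatives, and no member was called for yield group, traits or lactation in any. The number of genes called moved more. DESeq2 gave 1 gene for HY minus LY, 0 for milk yield, 3 for milk protein, 1 for milk solid and 865 for lactation, and 3 members and 1563 genes for neutrophils. A filter of at least 10 counts in at least 9 cows gave 0 for milk yield, milk solid and lactation. Covariates gave 0 for the same comparisons, and milk yield as response gave 0. Within the 16 cows there were 8 genes for milk solid, 0 for lactation, 549 for neutrophils and 1675 for epithelial cells, with 0 members called for neutrophils. Lactation gave 0 with the macrophage or epithelial score as a further term. Without 1 cow, lactation gave 0 to 428 genes (without LY cow 9), the macrophage score 1365 (without HY cow 1) to 2552, the neutrophil score 723 to 1252 genes and 1 to 2 members, and the epithelial score 1762 to 2792 genes and 2 to 4 members.

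The slope of CFB on the macrophage score was -0.565 to 0.0444 in the fits without 1 cow, the highest without LY cow 2. The following settings, and the fits without 1 cow for neutrophils, were chosen after seeing the data. Without TMM factors the median slope of all genes was 0.42, 0.21 and -0.23 on the macrophage, neutrophil and epithelial scores, 5785 genes were called for macrophages and 2 members and 1127 genes for neutrophils, and the slope of CFB on the macrophage score was 0.0501. Without HY cows 8 and 9, 1344 genes were called for epithelial cells. With both scores in a fit, 810 genes were called for macrophages and 1434 for epithelial cells, 0 members were called for epithelial cells, and the epithelial slopes of C1QA (0.186), C1QB (0.0210) and VSIG4 (0.0181) changed sign. The causes were not tested. No paired analysis was possible because the labels give each cow its own number. Counts of C5AR1 limit what can be said of it.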

Other observations

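The row of GPR77, the older symbol of C5AR2 and the neighbour of C5AR1 in the RefSeq table, had 215 to 8623 counts in every cow and was highest in HY cow 3 (773 CPM), the cow with the highest neutrophil score (8.37). The row of CXCR1, a chemokine receptor that defines neutrophils, had no count in any cow.

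Several regulators were counted in every cow. CD46, a membrane cofactor that inactivates C3 and C4 fragments, ranged from 182 to 556 CPM, and CLU (clusterin) from 20.5 to 151 CPM. C5, COLEC11, VTN and C4BPB were at 0 in 16 to 20 of the 21 cows, and C8A, C8B, MBL1 and MBL2 had no count in any cow. C1S, the partner of C1R in the C1 complex, was at 0 in 2 cows and reached 19 counts.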
